A study of Mus musculus with 8 samples.

Results

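The genes described here are transcripts of hepatocytes, the main cell type of the liver, in neuroblastomas of LSL-MYCN;Dbh-iCre mice. The list names 36 genes of plasma proteins, apolipoproteins, fibrinogen, cytochromes, urea cycle and amino acid enzymes, fuel metabolism and the hepatocyte surface, and it was drawn up because liver transcripts were high in 1 adrenal tumor, tumor 6. Of the 36, 35 had at least 1 probe set assigned to a single gene (51 probe sets in all), among 18194 genes with such a probe set on the array. Trf (transferrin) had none and is named only. The values of tumor 6 chose the list, so every contrast of tumor 6 with the other tumors is given as a description. A rule for outlying tumors, applied near the end, also marked tumor 6, and those marks are not read as a test.

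The 8 arrays hold 1 untreated tumor each, 6 from the adrenal (tumors 1 to 6) and 2 from the superior cervical ganglion (tumors 7 and 8). All tumors arose in double-transgenic mice of a mixed strain background. They carry human MYCN with a luciferase reading frame in the ROSA26 locus, behind the CAG promoter and a transcriptional stop between loxP sites, and they carry the Dbh-iCre transgene, which removes the stop in cells that use the dopamine beta-hydroxylase promoter, that is, noradrenergic cells. The labels give no age, sex or litter, and nothing in them says that the tumors came from separate mice, so a p-value measures the spread between these tumors. Normal adrenals and normal liver were not analysed here.

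Hepatocytes secrete most proteins of the blood plasma, among them albumin, fibrinogen, the apolipoproteins and protease inhibitors. They also hold the urea cycle, break down amino acids, release glucose and oxidize drugs and steroids through cytochromes P450. Their program depends on a small set of transcription factors that act together, including HNF4A, C/EBP and FOXA factors. Sympathetic neuroblasts, of which neuroblastomas consist, are precursors of noradrenergic cells and are marked by the enzymes of catecholamine synthesis.

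Levels are log2 values of 1 probe set per gene, the one with the highest mean over the tumors, so that a difference of 1 is a 2-fold change. A gene counted as detected in a tumor where it exceeded the 95th percentile of 86 probe sets for olfactory, vomeronasal and taste receptors on that array, a limit between 6.71 and 7.21. The upper quartile of the arrays lay between 8.85 and 8.93. The gap between the 3′ and 5′ control probe sets of Gapdh, a sign of RNA degradation, was 5.51 in tumor 1 and 0.60 in tumor 6, and between 0.47 and 1.57 without tumor 1. The tumor tissue itself was recognizable in tumor 6, where 10 of 10 measured genes of sympathetic neuroblasts were detected. Their summed level (log2 of the sum of linear values) was 16.54 in tumor 6 and lay between 14.70 and 16.76 in the other tumors, and no gene of this list was highest in tumor 6.

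In tumor 6, 33 of the 35 measured hepatocyte genes were at least 1 above the highest of the 7 other tumors, a margin that 1.5% of all genes reached (273 of 18194). The median margin of the hepatocyte genes was 5.84 and that of all genes -0.41. A margin over a level below the detection limit depends on the probe set's own floor, so the order of such margins has no weight. The mean level of the 35 genes was 11.04 in tumor 6 against 5.25 to 5.61 in the other tumors. Detection followed the same division, with 33 hepatocyte genes detected in tumor 6 (65.0% of all genes were) and between 1 and 4 in each of the others. In tumor 6 and in no other tumor, 29 hepatocyte genes were detected, as were 1.42% of all genes. Since these values chose the genes, nothing is read from the counts. The array compares RNA amounts in bulk tissue, in which fewer cells of a type and less RNA per cell cannot be told apart.

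**Figure D1:**
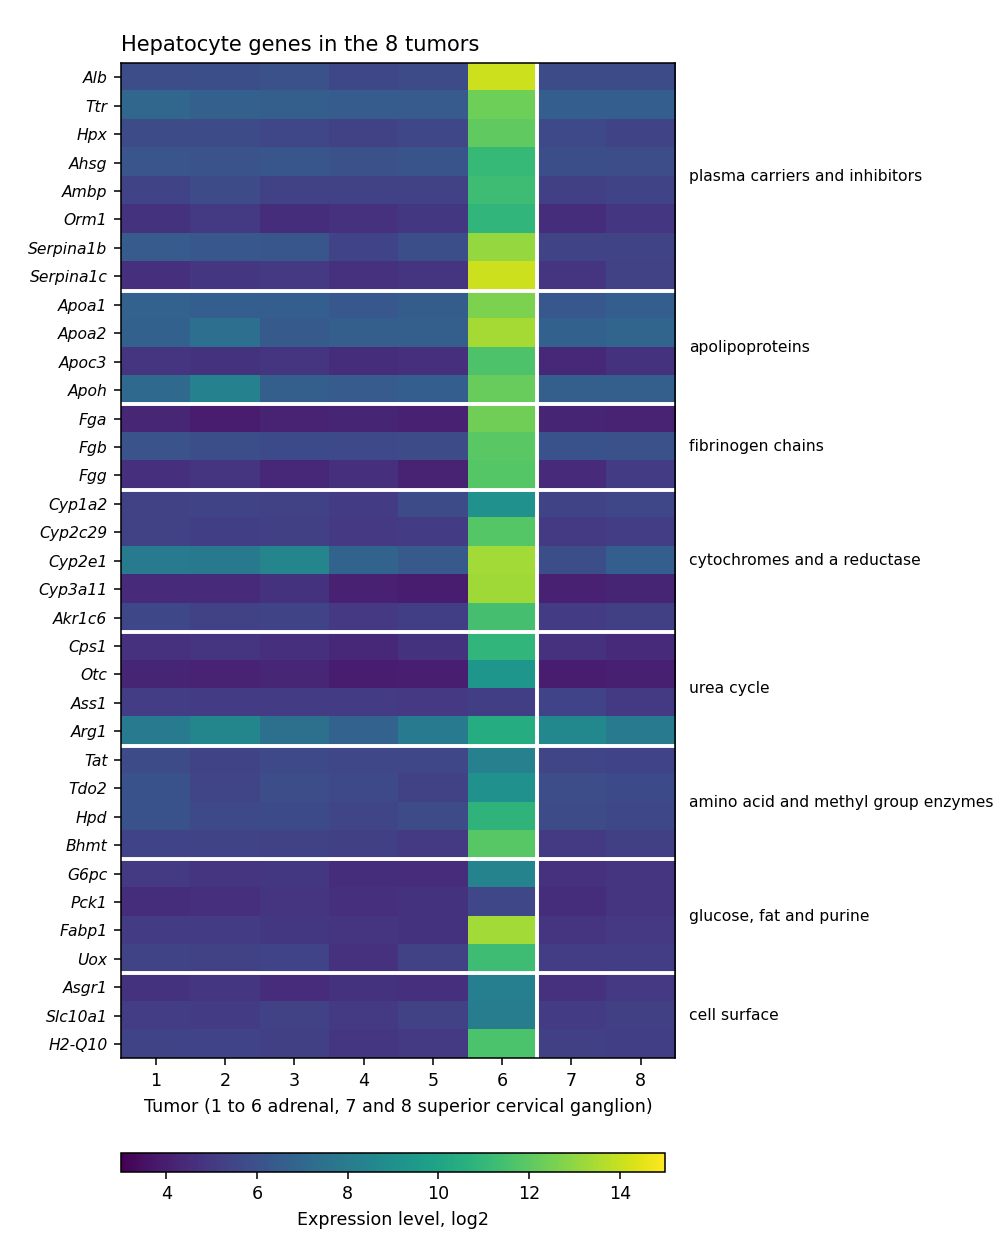
Heat map of the log2 level of the 35 measured hepatocyte genes (rows, grouped by role) in the 8 tumors (columns, 1 array each). Colors are compared along a row, since levels of different probe sets are not on 1 scale; 33 of the 35 rows are at least 1 higher in tumor 6 than in any other tumor, and Ass1 and Pck1 are not.

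The 33 genes above the margin of 1 lay on 17 chromosomes, with at most 5 on 1 chromosome, chromosome 3. Among these are the neighbouring fibrinogen genes Fga, Fgb and Fgg. The genes nearest to the margin of 1 were Ass1 (-0.19) and Pck1 (0.76) below it, and Arg1 (1.84), Tat (2.51), Slc10a1 (2.72) and Tdo2 (3.09) above it.

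Upstream sequences are shown for 4 plasma protein genes, because plasma proteins made up the first of the groups and these 4 windows hold a form of the C/EBP site, TTGCNNAA. Each window runs from 250 bases before to 50 bases after the annotated start (RefSeq, build GRCm38.p6), is written 5′ to 3′ on the strand of the gene, and has a match to TTGCNNAA on either strand in capitals. The windows are Alb, chr5:90460620-90460919 on the plus strand; Fga, chr3:83025903-83026202 on the plus strand; Fgb, chr3:83049814-83050113 on the minus strand; and Serpina1b, chr12:103738140-103738439 on the minus strand.
Alb: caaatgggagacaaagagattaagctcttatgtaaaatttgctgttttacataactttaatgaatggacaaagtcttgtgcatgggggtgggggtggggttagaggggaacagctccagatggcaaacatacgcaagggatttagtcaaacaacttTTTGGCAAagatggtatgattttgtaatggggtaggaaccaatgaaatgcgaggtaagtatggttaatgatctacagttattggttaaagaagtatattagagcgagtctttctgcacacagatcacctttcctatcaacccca
Fga: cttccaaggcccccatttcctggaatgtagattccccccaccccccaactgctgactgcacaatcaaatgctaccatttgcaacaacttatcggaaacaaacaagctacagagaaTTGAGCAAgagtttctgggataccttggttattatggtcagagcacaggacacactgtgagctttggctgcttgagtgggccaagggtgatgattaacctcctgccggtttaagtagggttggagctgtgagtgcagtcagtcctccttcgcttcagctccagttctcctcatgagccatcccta
Fgb: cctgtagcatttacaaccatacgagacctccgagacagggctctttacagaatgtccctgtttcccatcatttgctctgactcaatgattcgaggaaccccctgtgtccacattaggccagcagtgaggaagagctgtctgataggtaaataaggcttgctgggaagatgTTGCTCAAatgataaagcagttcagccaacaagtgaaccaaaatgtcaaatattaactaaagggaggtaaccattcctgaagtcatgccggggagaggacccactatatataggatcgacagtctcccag
Serpina1b: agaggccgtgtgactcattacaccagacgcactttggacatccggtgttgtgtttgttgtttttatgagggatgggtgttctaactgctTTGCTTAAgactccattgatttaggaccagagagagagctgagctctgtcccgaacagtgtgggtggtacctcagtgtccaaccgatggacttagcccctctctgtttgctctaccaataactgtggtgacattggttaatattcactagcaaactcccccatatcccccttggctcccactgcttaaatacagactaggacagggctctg

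Each of the 4 windows held 1 match. It began 94 bases before the start in Alb and 135 bases before it in Fga, both on the strand opposite to the gene. In Fgb and Serpina1b it lay on the strand of the gene, 80 and 161 bases before the start. Of the 30 hepatocyte genes with a window in the table, 11 held TTGCNNAA (36.7%, against 12.2% of all 27025 genes). The 11 were Ahsg, Alb, Apoa2, Asgr1, Fabp1, Fga, Fgb, Hpx, Serpina1b, Slc10a1 and Uox, and the TATA box core TATAAA was in 11 genes as well (36.7%, against 15.7%). CAAAGTCC, a form of the HNF4A site, was in 2 (6.67%, against 1.63%) and TGTTTAC, a form of the FOXA site, in 3 (10%, against 4.05%). Both strands were searched. These are matches of letters and do not show binding.

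Plasma carriers and inhibitors, the first group, were high in tumor 6 throughout: all 8 measured genes passed the margin, with a median of 6.07. Alb, the most abundant protein of plasma, was 5.83, 5.88, 5.96, 5.62 and 5.72 in adrenal tumors 1 to 5, 14.09 in tumor 6, and 5.73 in both ganglion tumors. It was thus below the detection limit in every tumor but tumor 6. A gene detected in no other tumor has only a bound on its fold, for which the 7 other tumors each enter with the higher of the gene's level and the detection limit, and for Alb the bound was at least 142-fold. Serpina1c, a copy of the antiprotease alpha-1-antitrypsin, was 14.09 in tumor 6 and lay between 4.62 and 5.33 in the others (median 4.85), with the same bound of at least 142-fold. Serpina1b, another copy, was 13.09 in tumor 6 against 5.42 to 6.46 in the others. The copies of this family are near-identical and may share probes, so their separate levels are uncertain.

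The other members of this group had the same order, with tumor 6 above the rest. Ttr, the carrier of thyroid hormone and retinol-binding protein, was 12.37 in tumor 6 against 6.45 to 6.97 elsewhere, and its 3 further probe sets were 13.66, 13.41 and 13.91 in tumor 6. Hpx, the heme carrier hemopexin, was 12.09 in tumor 6 against 5.39 to 5.79. Ambp, the precursor of alpha-1-microglobulin and bikunin, was 11.28 against 5.29 to 5.73. The carrier and inhibitor of mineralization Ahsg (fetuin-A) was 11.03 against 5.84 to 6.21, and the acute phase protein Orm1 was 10.91 against 4.55 to 5.06. In none of these 5 was another tumor above its detection limit.

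Of the apolipoproteins, all 4 passed the margin (median 5.95), and Apoh and Apoa2 were also detected outside tumor 6. Apoa1, the main protein of high-density lipoprotein, was 12.64 in tumor 6 against 6.25 to 6.77 in the others, with its 3 further probe sets at 12.19, 13.21 and 13.25 in tumor 6. Apoc3, an inhibitor of triglyceride clearance, was 11.67 in tumor 6 against 4.36 to 4.86 in the others. Both were below the detection limit in the 7 other tumors.

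Fibrinogen, the clotting protein, is assembled from 3 chains, and all 3 of its genes were high in tumor 6. Fga was 12.41 there against 3.97 to 4.29 in the others, Fgb was 11.94 there against 5.67 to 6.08 in the others, and Fgg was 11.84 there against 4.16 to 5.10 in the others. The bounds were at least 44.4-fold for Fga, 32.0-fold for Fgb and 30.0-fold for Fgg. The windows printed above for Fga and Fgb carry the C/EBP form on opposite strands, relative to the gene.

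Among the cytochromes and the reductase, 5 of 5 passed the margin (median 5.89). Cyp3a11, a drug-oxidizing enzyme, was 13.31 in tumor 6 against 3.91 to 4.76 in the others, at least 82.7-fold. Cyp2c29, of a large family with similar sequences, was 11.84 against 4.98 to 5.36. Akr1c6, a steroid reductase, was 11.47 against 4.97 to 5.58. Cyp1a2, which oxidizes caffeine and aromatic amines, was 9.06 in tumor 6 against 5.11 to 5.74. Cyp2e1, the ethanol-oxidizing form, was also detected elsewhere and is described below.

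The urea cycle disposes of ammonia, and 4 of its enzymes are on the list. Cps1, which starts the cycle in the mitochondrion, was 10.92 in tumor 6 against 4.40 to 4.80 in the others. Otc, the next enzyme, was 9.32 in tumor 6 against 3.92 to 4.31 in the others; another Otc probe set showed the same (8.40), while a further one was 3.63 in tumor 6 against 3.45 to 3.66 elsewhere. Ass1 was 5.22 in tumor 6 against 5.01 to 5.41 in the others, on a probe set that was above the detection limit in no tumor. Another Ass1 probe set is shared with another gene and was not used here. Arg1, the last enzyme of the cycle, was above every other tumor by 1.84. Asl, the enzyme before it, is not on the list. It was detected in every tumor, at 10.35 in tumor 6 against 9.40 to 10.92 in the others.

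The enzymes of amino acid and methyl group metabolism all passed the margin (4 of 4, median 3.95). Bhmt, which returns homocysteine to methionine, was 11.89 in tumor 6 against 5.04 to 5.48 in the others. Hpd, of tyrosine breakdown, was 10.82 against 5.49 to 6.01. Tdo2, which opens the tryptophan ring, was 9.09 against 5.32 to 6.00, and its 2 further probe sets were 10.95 and 8.03 in tumor 6. Tat, the tyrosine aminotransferase induced by glucocorticoids, was 8.24 against 5.41 to 5.74.

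Genes of glucose, fat and purine handling passed in 3 of 4 cases. Fabp1, the fatty acid binding protein of the liver, was 13.33 in tumor 6 against 4.76 to 5.10 in the others, at least 83.8-fold. Uox, the urate oxidase of rodents, was 11.28 against 4.70 to 5.44. G6pc, which releases free glucose, was 8.35 against 4.51 to 5.05. Pck1, of gluconeogenesis, depended on the probe set: the one with the highest mean was 5.57 in tumor 6 against 4.57 to 4.82 in the others, below the detection limit in every tumor. A further Pck1 probe set was 9.19 in tumor 6 against 3.75 to 4.44 in the others, and another was 3.73 in tumor 6 against 3.45 to 3.96 in the others.

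Of the surface and immune genes, H2-Q10, a secreted class I molecule of mouse liver, was 11.62 in tumor 6 against 4.92 to 5.44 in the others. Asgr1, a subunit of the asialoglycoprotein receptor, was 8.18 against 4.54 to 5.01. Slc10a1, the bile acid importer, was 8.06 against 5.05 to 5.35, with a further probe set at 8.32. The bounds of these last 2 genes, at least 2.37-fold and 2.18-fold, were the lowest of the list with Tat (2.47-fold). Over the 29 genes with such a bound the median was 25.7-fold, and 22 genes were at least 10-fold higher in tumor 6.

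Of the hepatocyte genes, 4 were detected in tumor 6 and in at least 1 other tumor. Cyp2e1 was 7.93, 7.87, 8.48, 6.83 and 6.37 in adrenal tumors 1 to 5, 13.34 in tumor 6, and 5.86 and 6.58 in ganglion tumors 7 and 8. It was above the detection limit in adrenal tumors 1 to 4 and below it in tumor 5 and in both ganglion tumors. In tumor 4 it stood just above the limit of 6.71. The adipocyte hormone Adipoq was 7.72, 7.35, 6.72, 6.29 and 4.50 in adrenal tumors 1 to 5, 8.59 in tumor 6, and 4.44 and 4.51 in the ganglion tumors. Adipoq was above the detection limit in tumors 1, 2 and 6 alone. In tumors 5, 7 and 8 both genes were below the limit, where levels have no dependable order. Outside tumor 6, Cyp2e1 was highest in tumor 3, where Adipoq was below the limit. Cyp2e1 is known from adipocytes as well as from liver. Of 5 measured adipocyte genes 3 were detected in tumor 6, where 65.0% of all genes were, so nothing is read from this count. The summed level of the 5 was 9.70 in tumor 6 against 8.23 to 9.08 in the other tumors. The part of adipocytes in the Cyp2e1 level was not tested.

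Arg1 was the only gene of the list above the detection limit in all 8 tumors, by the 95th percentile limit. It was 7.90, 8.51, 7.45, 6.75 and 7.96 in adrenal tumors 1 to 5, 10.43 in tumor 6, and 8.59 and 8.00 in the ganglion tumors. Tumor 6 was highest, and tumor 4 stood just above its limit of 6.71. Arg1 is also known from macrophages. The macrophage genes Cd68 and Mrc1 were detected in every tumor, Cd68 at 9.35 in tumor 6 against 8.21 to 9.43 in the others, and Mrc1 at 8.07 in tumor 6 against 7.17 to 8.74 in the others, so that tumor 6 lay within the range of the other tumors for both. The part of macrophages in the Arg1 level of the other tumors was not tested.

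Apoh, beta-2-glycoprotein I, which binds phospholipids, was 7.08, 8.27, 6.65, 6.45 and 6.60 in adrenal tumors 1 to 5, 12.22 in tumor 6, and 6.62 and 6.65 in the ganglion tumors. Outside tumor 6 it was above the limit in tumor 2 alone. A second Apoh probe set was raised in neither tumor, at 6.59 in tumor 2, 6.35 in tumor 6 and 5.91 to 6.68 over all tumors. Apoa2, of high-density lipoprotein, was 6.73, 7.37, 6.40, 6.61 and 6.61 in adrenal tumors 1 to 5, 13.40 in tumor 6, and 6.71 and 6.92 in the ganglion tumors. Its levels in tumors 2 and 8 were above the limits of these arrays (7.21 and 6.77) by a small amount.

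**Figure D2:**
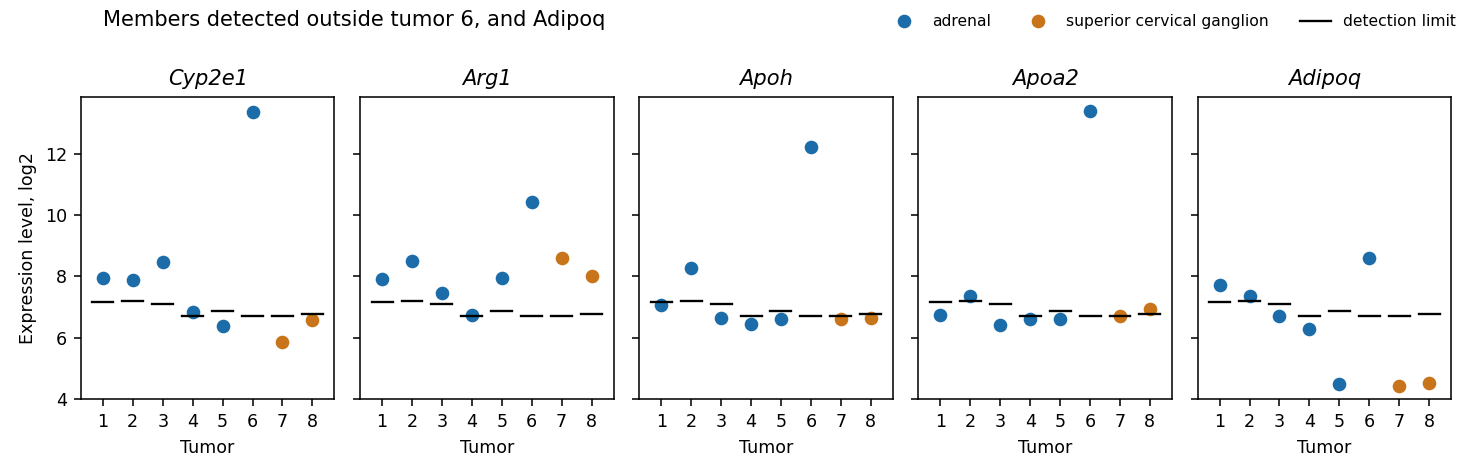
Log2 level of Cyp2e1, Arg1, Apoh, Apoa2 and the adipocyte gene Adipoq in each tumor (points, blue for adrenal, orange for superior cervical ganglion), with the detection limit of each array as a black line. Cyp2e1 exceeds the limit in adrenal tumors 1 to 4 (in tumor 4 by a small amount) and 6. Arg1 exceeds it in every tumor, and Apoh and Apoa2 in tumor 6 and in 1 or 2 further tumors.

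The other 31 hepatocyte genes were detected in none of the 7 other tumors, where their levels lay between 3.91 and 6.97. Among the 7, the highest level of a gene was in tumor 1 for 16 of these 31 genes and in tumor 4 for 0. Tumor 1 was the array with the largest Gapdh gap and a detection limit of 7.16, and the limit of tumor 4 was 6.71. Levels below the limit have no dependable order, and the same count over all genes is not given, so nothing is read from these counts. The part of RNA quality and of the limits of the arrays in this order was not tested.

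Whether the hepatocyte genes differed between the sites was tested without tumor 6, in adrenal tumors 1 to 5 against ganglion tumors 7 and 8. Of the 24 hepatocyte genes that passed the filter on low values, 20 were detected in none of these 7 tumors, so that the comparison holds no information on their expression. The other 4 were not called by limma at an adjusted p below 0.05, and none had an unadjusted p below that value. The smallest unadjusted p of the 4 in limma was 0.0519, for Cyp2e1. In some alternatives hepatocyte genes had an unadjusted limma p below 0.05, each higher in the adrenal tumors. There was 1 of 20 with the mean of probe sets, where 616 of all 15901 genes had such a p. There was 1 of 24 with an intensity trend (649 of 16221 over all genes) and 1 of 24 without tumor 5 (454 of 16203). Without tumor 4 there were 2 of 24 (461 of 16208). Most of the hepatocyte genes tested were below the limit in these tumors, so nothing is read from these counts. Over all genes 2 of 16221 were called (0.0123%), and 641 had an unadjusted p below 0.05. Cyp2e1 was 7.50 on average in the adrenal tumors (n = 5) and 6.22 in the ganglion tumors (n = 2), both of which were below their detection limits. The measured difference was 1.28 ± 0.56 (SE), with an adjusted p of 0.916 in limma. Arg1 was 7.71 in the adrenal and 8.30 in the ganglion tumors, a difference of -0.59 ± 0.43 with an adjusted p of 0.916 in limma. For Apoh, likewise below the limit in both ganglion tumors, the difference was 0.37 ± 0.46 (adjusted p of 0.949 in limma), and for Apoa2 it was -0.07 ± 0.26 (adjusted p of 0.986 in limma). The small number of ganglion tumors limits the precision of these differences. The 2 ganglion tumors were also unlike each other in genes of sympathetic neuroblasts. Ddc was 7.38 in tumor 7 and 14.22 in tumor 8, and Dbh was 9.07 and 13.13. Gata3 was 5.22 in tumor 7, below the limit, and 11.54 in tumor 8, while Isl1 was closer (13.48 and 13.78).

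Hepatocyte genes beyond the 35 were high in tumor 6 as well. Of 169 further genes on lists of liver function, 101 passed the margin of 1, with a median margin of 1.75. The same margin was reached by 1.5% of all genes. These lists were chosen with earlier results of these data known, so nothing is read from their counts. Where the other tumors were below their limits, the order of the margins within a list has no weight. Some genes that passed were below the detection limit of tumor 6 and are named below. Among the coagulation factors and their inhibitors 14 of 16 did (median 3.05): Serpinc1, or antithrombin, was 11.32 in tumor 6 and at most 5.78 elsewhere, and the plasmin precursor Plg was 11.25 and at most 6.00. The lowest margins in this list were those of F7 (0.76) and F11 (0.81). Complement genes passed in 9 of 12 cases (median 2.63), with C8a (9.04 against at most 4.55) first and Masp1 (-0.37) last. Of 22 other cytochromes and conjugating enzymes 18 passed (median 3.35), led by Ugt2b5, a glucuronosyltransferase (10.65 against at most 4.04), and Cyp3a25 (10.18 against at most 4.41). Cyp3a13 (6.39) and Cyp4f14 (6.38) passed while below the detection limit in tumor 6.

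Acute phase proteins passed in 10 of 17 cases (median 2.30). Itih3 (9.25 against at most 4.44) and Saa1 (8.95 against at most 4.84) had the largest margins. Saa3, Mt1 and Mt2, which many cell types induce in inflammation or by metals, were instead higher in another tumor, with margins of -2.39, -1.81 and -1.08. Of 15 other plasma and transport proteins 12 passed (median 2.22), led by the protease inhibitor Pzp (11.24 against at most 4.33) and the retinol carrier Rbp4 (12.39 against at most 6.69). Serpina6 passed too, at 6.57 in tumor 6, below the detection limit. Apoe, which macrophages also make, was 13.17 in tumor 6 and up to 13.06 in the others.

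Bile acid and sterol genes passed in 10 of 16 cases (median 1.30). Of those that passed, Abcc2 (5.98) and Abcg5 (6.35) were below the detection limit in tumor 6. The basolateral importer Slco1b2 was 9.14 in tumor 6 and at most 4.52 elsewhere, and Slc27a5, which activates bile acids, was 8.35 and at most 5.40. Cyp7a1, the rate-limiting enzyme of bile acid synthesis, was 5.81 in tumor 6, below the detection limit. Amino acid and one-carbon enzymes passed in 12 of 17 cases (median 1.78), with Mat1a (9.52 against at most 4.63) and Gnmt (11.21 against at most 7.04) first and Hgd (-0.16) and Ahcy (-0.03) last. Kynu (6.60) and Aass (6.65) passed while below the detection limit in tumor 6. Liver genes of sugar metabolism passed in 5 of 9 cases (median 1.44), among them the glucose transporter Slc2a2 (8.91 against at most 4.25) and Fbp1 (10.75 against at most 6.06). Gys2 passed as well, at 5.99 in tumor 6, below the detection limit.

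**Figure D3:**
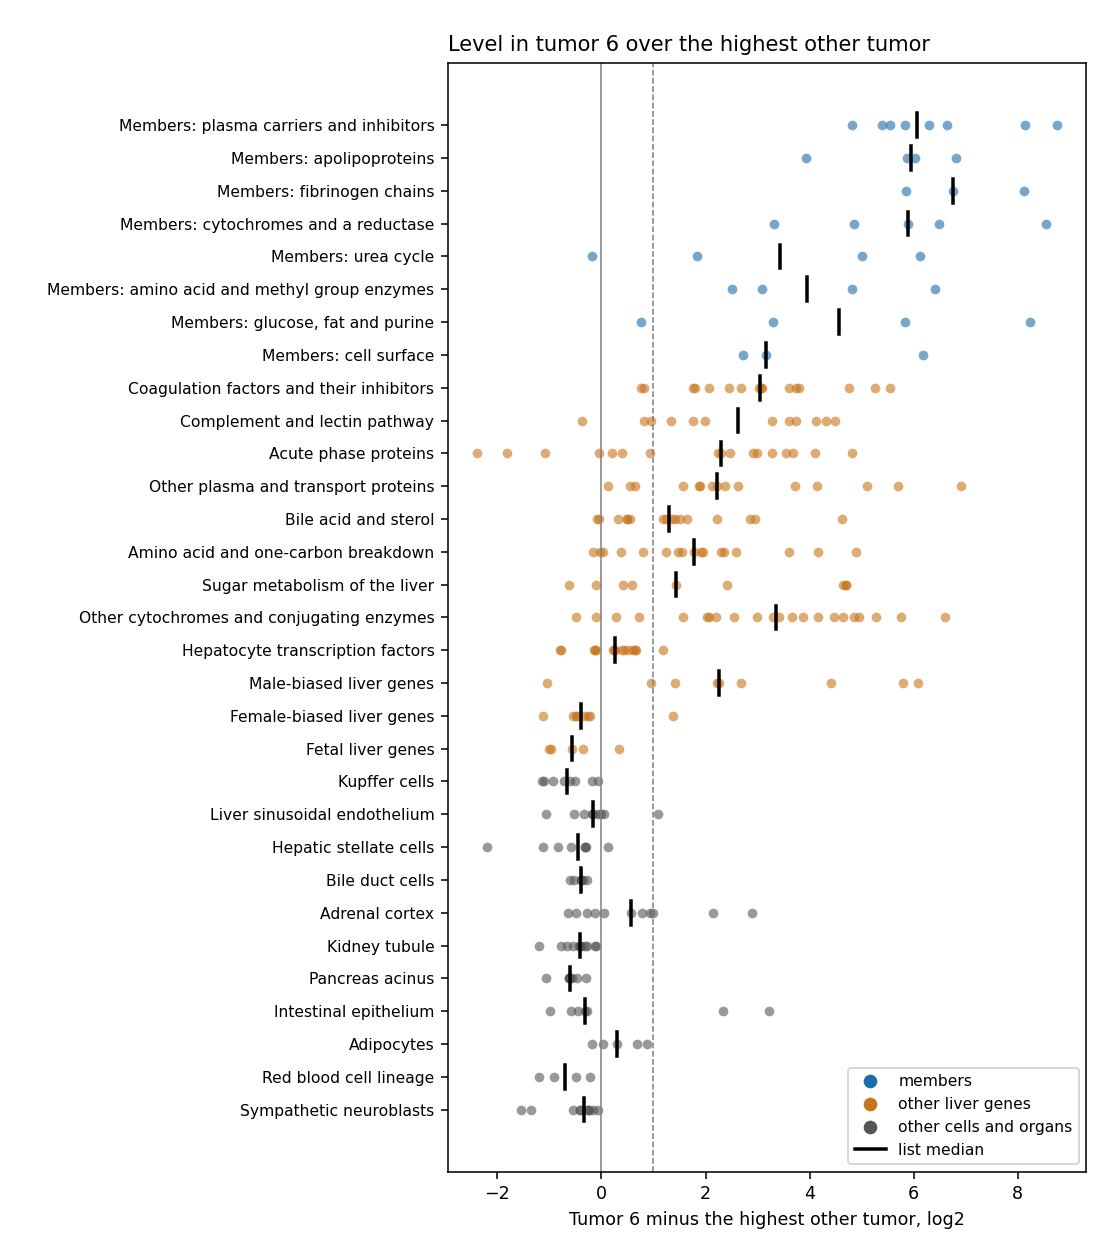
Margin of tumor 6 over the highest of the 7 other tumors, in log2 units, for each gene (points) of the hepatocyte list by role (blue), of further lists of liver genes (orange) and of lists for other cells and organs (grey); black bars are list medians, and the dashed line is the margin of 1. Median margins lie between 3.17 and 6.75 for the 8 roles and at or below 0.56 for the lists of other cells and organs.

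Of 15 measured transcription factors of hepatocytes, 7 were detected in tumor 6, 8 were detected in no tumor, and 1 passed the margin of 1 (median 0.26). Hnf4a was 8.02 in tumor 6 against 6.47 to 6.85 in the others. Cebpa was 8.11 in tumor 6 and at most 7.51 elsewhere, a margin of 0.60. Foxa2 was 6.85 in tumor 6 and at most 6.41 elsewhere, while Foxa3 (6.17) and Nr1h4 (6.16), the bile acid receptor, stayed below the detection limit. Cebpb (-0.79) and Prox1 (-0.77) had the lowest margins, and Prox1 was detected in every tumor, up to 12.18.

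Genes of both zones of the liver lobule were among those high in tumor 6. Among 14 pericentral genes 7 passed, led by Cyp2c29 and Rgn (11.11 against at most 5.87), and among 13 periportal genes 6 passed, led by Cps1 and Cyp2f2 (9.62 against at most 4.98). Of these lists, 3 pericentral genes (Cyp2c29, Cyp2e1 and Cyp1a2) and 4 periportal genes (Cps1, Arg1, Ass1 and Pck1) are on the hepatocyte list that tumor 6 chose. The periportal gene Cdh1 passed at 6.00, below the detection limit. The pericentral enzyme Glul was detected in every tumor, at 11.74 in tumor 6 and up to 11.43 elsewhere. The pericentral genes Oat (0.10), Slc1a2 (-1.72), Rhbg (-0.26), Axin2 (-0.91), Lgr5 (-0.46) and Tbx3 (-0.38) did not pass either. Fetal liver genes did not pass in any of 5 cases: Afp, the albumin-like protein of fetal liver, was 5.47 in tumor 6, below the detection limit, and 6.44 at most elsewhere. Dlk1 was 11.43 in tumor 6 and up to 11.99 in the others.

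Liver transcripts differ between male and female mice under growth hormone and through sex steroids. Of 9 male-biased genes 7 passed the margin (median 2.26). The major urinary protein gene Mup3 was 10.76 in tumor 6 against 4.11 to 4.67 in the others, and its near-identical family members may share its probes. The cytochrome Cyp2d9 was 11.50 against at most 5.70, Cyp4a12a 8.94 against at most 4.53, and the steroid enzyme Hsd3b5 8.11 against at most 5.42. C6 missed the margin with 0.96, and Susd4 was higher in another tumor (-1.05).

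Of 8 female-biased genes 1 passed, Hao2, which at 6.01 was below the detection limit of tumor 6, and the median margin was -0.40. Cyp2b9 (4.99), Cyp2b13 (5.46), Cyp3a44 (4.47) and Sult3a1 (4.07) were also below it. Beside this, Xist, which is transcribed from the inactive X chromosome of females, was 6.21 in tumor 6, below the limit, and 12.57, 13.69 and 13.18 in tumors 1, 4 and 7. The Y-linked gene Eif2s3y was 9.27 in tumor 6, and at most 3.85 in tumors 1, 4 and 7. The Y-linked gene Uty was 7.53 in tumor 6, above the limit, and at most 4.06 in tumors 1, 4 and 7. Another Y-linked gene, Kdm5d, was 6.44 in tumor 6, below the limit, and at most 3.96 in tumors 1, 4 and 7. In tumors 2, 3, 5 and 8 Xist was at most 6.64 and Eif2s3y at least 9.34. Over the 7 other tumors the mean of the male-biased liver genes lay between 5.76 and 6.11, and in tumor 6 it was 9.09.

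**Figure D4:**
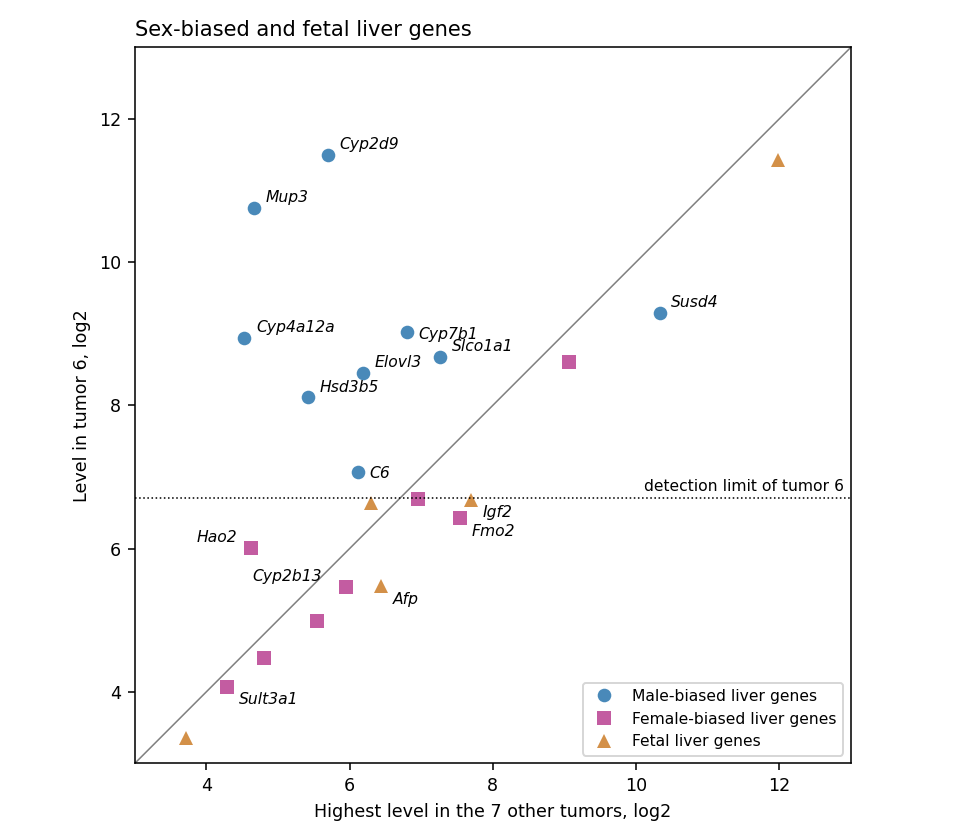
Log2 level in tumor 6 against the highest log2 level in the 7 other tumors for male-biased, female-biased and fetal liver genes (1 point per gene); the grey line marks equal levels and the dotted line the detection limit of tumor 6. Of 9 male-biased genes 7 lie at least 1 above the line of equal levels, as do 1 of 8 female-biased and 0 of 5 fetal genes.

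Markers of the other cell types of the liver were, apart from 1 gene, less than 1 above the highest other tumor in tumor 6. Of 8 Kupffer cell genes 0 passed the margin (summed level 11.62 in tumor 6 against 11.06 to 12.23 in the others), and the defining markers Clec4f (6.56) and Vsig4 (6.10) were below the detection limit in tumor 6. Cd5l (11.11), Adgre1 (8.69) and Folr2 (6.85) were detected there, each with a higher level in another tumor. Of 9 genes of the sinusoidal endothelium 1 passed (10.46 against 10.03 to 10.43), the lectin Clec4g, at 7.43 in tumor 6 and at most 6.36 elsewhere, while Oit3 (5.28) and Dnase1l3 (5.32) were below the limit. Of 8 stellate cell genes 0 passed (11.60 against 10.83 to 11.97), and Lrat was 4.64 in tumor 6. Of 6 bile duct genes 0 passed (8.69 against 8.55 to 9.04), and Krt19 was 5.16.

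Among other tissues, the adrenal cortex had 3 of 11 genes past the margin in tumor 6. Hsd3b1 was 9.41 there against 5.04 to 6.52 elsewhere, Cyp11a1 was 7.59 and at most 5.45, and Cyp11b1 was 7.21 and at most 6.20. The summed level of the list was 11.91 in tumor 6 against 11.09 to 11.72 in the others. Nr5a1 (6.28), Cyp11b2 (5.26), Mc2r (5.95) and Mrap (6.52) were below the detection limit in tumor 6. Star missed the margin with 0.94, Cyp21a1 was 8.07 against at most 8.03, and Scarb1 (-0.64) and Fdx1 (-0.48) were higher in another tumor. Of the intestinal list 2 of 7 passed, Fabp2 (7.57 against at most 4.37) and Apoa4 (9.51 against at most 7.18), both of which are also known from liver, while Vil1 (4.82) and Cdx2 (5.44), which define the intestine, were below the limit. None of 12 kidney tubule, 8 pancreas acinus, 4 red cell and 5 adipocyte genes passed. Umod (3.81) and Slc34a1 (6.01) of the kidney and Cela2a (4.80) and Cpa1 (5.07) of the pancreas were below the limit in tumor 6. Kap (7.42) and Slc22a12 (7.89) of the kidney list and Cela1 (8.60), Cela3b (7.60) and Prss2 (6.95) of the pancreas list were detected in it, each with a higher level in another tumor. The part that these cell types have in the hepatocyte levels was not tested.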

How the data were processed

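The deposited log2 values of 8 Affymetrix Murine 430 version 2 arrays were used as given. RMA and Partek 6.6 stand in the submitters' processing notes, gcRMA in the study's methods, and which of these the authors applied to the log2 values is not settled. Both adjust background and equalize the arrays, and low levels can be compressed to a degree that may differ between them. Of 45101 probe sets, 34958 were assigned to 1 gene, 932 to several and 9211 to none, and names were updated through Entrez identifiers to the RefSeq table of GRCm38.p6 (34754 matched). The probe set of highest mean stood for a gene.

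Sites were compared by lmFit and eBayes of limma 3.58.1 under R 4.3.3 (two-sided, Benjamini-Hochberg over all genes tested) on genes above log2 5 in at least 2 tumors. The fit was tested on simulated data. The number of arrays limits the precision. All members are named, then per list up to 4 genes of largest and 2 of lowest margin and further defining genes, not every one of which is printed, and the 10 genes of largest margin outside the lists. Members and lists were chosen with earlier results of these data known. Alternatives covered normalization, probe set choice, filter, margin, detection limit, intensity trend and each tumor left out. Figures were drawn with matplotlib 3.10.9.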

Additional observations from a re-analysis of the deposited data

Results flagged for a closer look

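For 50 measures among the adrenal tumors the gap of the outermost tumor to its nearest neighbour was taken as a share of the whole range and compared with Dixon's critical value, which about 1 in 20 groups passes by chance. It was passed in 5. In 4 of these the outermost tumor was tumor 6, the tumor that chose the hepatocyte list, so these 4 gaps are given as sizes only and are not set against chance. The mean of the hepatocyte genes had a gap of 0.938 (11.04 in tumor 6 against 5.25 to 5.61). The mean of the male-biased liver genes had a gap of 0.922 (9.09 in tumor 6 against 5.76 to 6.02). The mean of the adrenal cortex genes had a gap of 0.827 (7.64 in tumor 6 against 6.52 to 6.71), and that of the intestinal genes a gap of 0.74 (6.43 in tumor 6 against 5.63 to 5.84). Without tumor 6, Uox had a gap of 0.807 because it was lower in tumor 4 (4.70) than in tumors 1, 2, 3 and 5 (5.30 to 5.44), all of them below the detection limit.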

How the results depend on the processing

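Of 61 comparisons of a reported value with an alternative, 51 stayed within the bounds set for a change and 10 moved. Many of the 51 concern levels of tumor 6, whose values chose the list. Leaving out another tumor cannot lower a margin of tumor 6 or the count detected in every tumor. The tally is therefore not read as support. The count of hepatocyte genes called between the sites was 0 under every alternative with both ganglion tumors, leaving out an adrenal tumor included. However, most of these genes were below the detection limit in the tumors compared. The alternative that put tumor 6 back among the adrenal tumors used values that chose the list, and it is not read as a test. The count over all genes was 2, became 4 with an intensity trend, and ranged from 0 to 695 when 1 tumor was left out: 0 without tumor 3 or 4, 1 without tumor 1, 2 or 5, 9 without ganglion tumor 7 and 695 without ganglion tumor 8. In the last 2 cases the remaining ganglion tumor was assumed to vary like the adrenal tumors, and the smallest adjusted p of a hepatocyte gene in limma without tumor 8 was 0.307. The cause was not tested. Arg1 was detected in every tumor under the 95th percentile limit. With the 99th percentile (limits 7.02 to 7.56) 0 genes were, and with the limit of log2 5 that the study's methods use 19 were, since that limit is lower. The count of genes with tumor 6 above every other tumor was 32 with a margin of 2 and 34 with a margin of 0, and 34 with the probe set of largest margin per gene, an alternative chosen after seeing the data. The median margin stayed between 5.84 and 5.89. No paired analysis was possible because the tumor numbers are not shared between the sites. Below the detection limit, levels have no dependable order.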

Other observations

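Of the 273 genes with tumor 6 at least 1 above every other tumor, 33 were on the hepatocyte list, 101 on the further lists of liver function and 139 on neither. The 10 genes of neither kind with the largest margins were detected in no tumor but tumor 6. Mug1, a plasma protease inhibitor of rodents, was 10.40 in tumor 6 against 3.88 to 4.21 in the others. Rdh7, a retinol and steroid dehydrogenase, was 10.75 against 4.34 to 4.56, and the sulfotransferase Sult2a8 was 9.82 against 3.78 to 4.24. Pon1, the paraoxonase carried on high-density lipoprotein, was 10.44 against 4.74 to 5.12. Hc, complement component C5, was 9.88 against 4.46 to 4.68. The enzymes Ugt2b36 (9.72), Ces1c (8.95), Cyp2j5 (8.86) and Akr1c14 (8.41) and the secreted protein Wfdc21 (10.90) completed the 10.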
